A study of Mus musculus with 4 samples.

Results

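The genes for the proteins of the mitochondrial ribosome were followed across 4 microarrays of mouse blood progenitors. The members are the 76 genes whose symbol in the deposited table is Mrpl or Mrps followed by a number and, in some cases, a letter. They are 29 small subunit genes (Mrps) and 47 large subunit genes (Mrpl), of 24287 genes on the array, and they occupy 133 table rows and 106 probes. This split follows the symbol, and not every Mrps protein belongs to the small subunit. Mrps18a and Mrps36 are examples given below. The rule reads the symbol alone and no measured value. RefSeq lists 78 mouse genes with such names; the other 2 stand on the array under the older symbols Mrp63 and Ict1 and are given with the genes under other names.

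The mitochondrial ribosome translates the few proteins encoded in mitochondrial DNA, all of them subunits of the respiratory chain, counted here with ATP synthase. All of its proteins are encoded in the nucleus, made in the cytosol and imported. The small subunit reads the messenger RNA, and the large subunit joins the amino acids and passes the new chain through an exit tunnel to the inner membrane. Many of its proteins descend from the bacterial ribosome, and others are found in mitochondria alone. In blood progenitors, mitochondrial activity is commonly low in the most primitive cells and higher in their dividing descendants.

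The study set out to find genes that respond to SFRP5, a secreted antagonist of Wnt ligands, in adult bone marrow. There were 4 groups with 1 array each: wild-type (WT) and SFRP5-transgenic mice, in LSK cells and in CLP. LSK cells are lineage-negative c-kitHi Sca-1+ cells, a gate that holds stem cells and multipotent progenitors. The CLP gate is lineage-negative, c-kitLo, Sca-1Lo and IL7Rα+, and is enriched for common lymphoid progenitors. The WT mice were littermates of the transgenic mice. What drives the transgene, the strain and how many animals went into each sort are not stated. With 1 array a group there is no replicate check: every difference below is between 2 arrays, and no test was possible.

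Every member was well above background on all 4 arrays by the scanner's own call. Over single probes, 103 of the 106 member probes passed on WT LSK, 102 on SFRP5 LSK, 105 on WT CLP and 103 on SFRP5 CLP, and 102 passed on all 4. Of all 55681 probes, 65.3% to 70.1% passed on each array. No spot was saturated. A level is the log2 processed intensity minus the 75th percentile of its array, so a level of 0 is as bright as that percentile, and a difference of 1 is 2-fold. The median member was at 1.13 on WT LSK, 1.62 on SFRP5 LSK, 2.66 on WT CLP and 2.33 on SFRP5 CLP. For 3 members printed in replicate on the array, Mrpl34, Mrpl50 and Mrps35, the SD over 8 to 10 spots was 0.024 to 0.17 log2 units. That spread covers spotting and scanning, not mice or sorts. The probe for Sfrp5 itself was at -0.23 on WT LSK, -0.31 on SFRP5 LSK, -0.021 on WT CLP and -0.0041 on SFRP5 CLP, so the genotypes differed by less than 0.12 log2 units, the SD of a difference between replicate spots.

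The gates were set against markers of the cells they could hold. Summed over 6 LSK markers, the signal in multiples of the 75th percentile was 49.9 and 51.5 on the WT and SFRP5 LSK arrays, against 8.60 and 13.7 on the WT and SFRP5 CLP arrays. The 9 lymphoid and B lineage markers summed to 74.8 and 124.0 in LSK and to 186.1 and 257.4 in CLP. The 6 erythroid markers summed to 11.7 and 9.57 in LSK and to 414.7 and 230.0 in CLP, with all 6 above background on both CLP arrays. The 5 mast cell and basophil markers summed to 1.29 on each LSK array and to 52.5 and 36.4 in CLP. Of these 5, 3 were above background on WT LSK and 2 on SFRP5 LSK, and all 5 were on both CLP arrays. The 7 granulocyte and monocyte markers summed to 55.5 and 77.9 in LSK and to 284.9 and 319.2 in CLP. The sums of the 3 dendritic markers lay between 33.5 and 37.4 on all 4 arrays, and those of the 3 T cell markers between 4.92 and 8.57. Single dendritic markers moved more than their sum. Irf8 alone stood past 2-fold higher in CLP in WT marrow (1.66 log2 units). Cd300c (1.40) and Irf8 (1.31) both did so in SFRP5 marrow. Siglech went slightly the other way, at -0.086 and -0.20 for WT and SFRP5 marrow. The erythroid, mast cell and granulocyte sums thus stood higher in the CLP sorts than in LSK. Of the 7 granulocyte and monocyte markers, 1 was lower in CLP than in LSK in WT and 2 were in SFRP5 (lowest log2 difference -1.01). Within CLP the erythroid and mast cell sums were higher in WT. The granulocyte sum was higher in SFRP5, although 4 of its 7 markers were lower there (median log2 difference -0.10). These marker lists move with the sort differences below, and their part in those differences was not tested. In such bulk samples, fewer cells of a type and less RNA per cell cannot be told apart.

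Between the sorts of WT marrow, mitochondrial ribosomal protein genes were higher in CLP than in LSK almost throughout. The difference was above 0 for 75 of 76 members (98.7%), against 50.6% of the 16018 genes measured on both arrays. It reached 1.5-fold for 68 members (89.5%), where 29.6% of all genes were that much higher, and 0 members were 1.5-fold lower, where 26.5% of all genes were. A 2-fold difference was passed by 61 members, against 17.8% of all genes. The median member was 1.37 log2 units higher in CLP (2.58-fold), with the middle 50% between 1.08 and 1.75, while the median of all genes was 0.016. Genes whose brighter array lay at or above the 75th percentile, as most members do, had a median of 0.32.

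Among small subunit genes in WT, Mrps24, a head protein with a bacterial counterpart, differed most between the sorts. Its level was -1.55 on WT LSK, -0.085 on SFRP5 LSK, 1.26 on WT CLP and 0.17 on SFRP5 CLP. WT LSK was far below the other arrays, and the WT sort difference was 2.82. Mrps36, which is now known as a component of the 2-oxoglutarate dehydrogenase complex and not of the ribosome, was at 0.54 on WT LSK, 0.49 on SFRP5 LSK, 2.89 on WT CLP and 1.95 on SFRP5 CLP. The WT sort difference of Mrps36 was 2.35, and its CLP levels lay above both LSK levels. Next came the paralogs Mrps18a (2.19) and Mrps18c (2.14). Mrps27, an RNA-binding pentatricopeptide repeat protein found in mitochondria alone, was at -1.56 on WT LSK and -0.16 on SFRP5 LSK, and at 0.49 and 0.84 on the WT and SFRP5 CLP arrays, a WT difference of 2.05. Mrps28 (2.04) and Mrps34 (1.94) followed; mutations of the latter cause a human mitochondrial disease. Past 2-fold in the body and platform were also Mrps25 (1.71), Mrps22 (1.69), Mrps21 (1.46), Mrps16 (1.45), Mrps11 (1.41), Mrps15 (1.35) and Mrps18b (1.28). In the head these were Mrps31 (1.68), Mrps14 (1.6), Mrps7 (1.38), Mrps35 (1.33) and Mrps33 (1.09), around decoding and entry Mrps5 (1.33) and Mrps12 (1.02), and elsewhere Mrps26 (1.76). At the other end, Mrps10, a head protein, was the only member higher in LSK, with 6.50 on WT LSK, 6.15 on SFRP5 LSK, 6.07 on WT CLP and 6.16 on SFRP5 CLP, a WT difference of -0.43. Mrps9 (0.34), Mrps6 (0.54) and Mrps2 (0.77) had the next smallest differences, and that of Mrps9 turned below 0 (-0.077) in the scaling of the authors' table.

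Large subunit genes were all above 0 in the same comparison. Mrpl20, which has a bacterial counterpart that binds ribosomal RNA, led them with levels of 0.62 on WT LSK, 0.20 on SFRP5 LSK, 3.26 on WT CLP and 2.53 on SFRP5 CLP. Both CLP arrays stood about as far above both LSK arrays, with sort differences of 2.64 in WT (6.24-fold) and 2.33 in SFRP5 (5.03-fold). Mrpl54, specific to mitochondria, was at 0.85 on WT LSK, 1.85 on SFRP5 LSK, 3.20 on WT CLP and 2.55 on SFRP5 CLP, a WT difference of 2.34. Mrpl53 differed by 2.32 and Mrpl28 by 2.22. Of the other members specific to mitochondria, Mrpl41 (2.22), Mrpl51 (2.16), Mrpl40 (1.99), Mrpl52 (1.96), Mrpl43 (1.51), Mrpl48 (1.38), Mrpl37 (1.31), Mrpl42 (1.30), Mrpl49 (1.30), Mrpl46 (1.23), Mrpl45 (1.20), Mrpl39 (1.1) and Mrpl38 (1.06) were past 2-fold. With a bacterial counterpart, Mrpl55 (2.02), Mrpl14 (1.88), Mrpl18 (1.78), Mrpl34 (1.75), Mrpl1 (1.72), Mrpl12 (1.63), Mrpl30 (1.6), Mrpl17 (1.58), Mrpl16 (1.51) and Mrpl32 (1.47) were at least 1.47 log2 units higher. Mrpl47 (1.39), Mrpl22 (1.38), Mrpl21 (1.34), Mrpl33 (1.32), Mrpl11 (1.32), Mrpl9 (1.31), Mrpl3 (1.26), Mrpl10 (1.22), Mrpl36 (1.09), Mrpl19 (1.09), Mrpl15 (1.03) and Mrpl35 (1.02) were the rest past 2-fold. The smallest differences were those of Mrpl4 (0.14), Mrpl27 (0.17), Mrpl50 (0.23) and Mrpl24 (0.34), and all 4 turned below 0 under quantile or cyclic loess normalization and in the authors' scaling. Further probes above background on all 4 arrays gave 0.91 for Mrpl4, 1.29 for Mrpl50 and 0.0075 for Mrpl27. Mrpl4 and Mrpl27 were grouped with the surroundings of the peptidyl transferase centre, where peptide bonds form, and Mrpl24 with the exit tunnel.

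**Figure D1:**
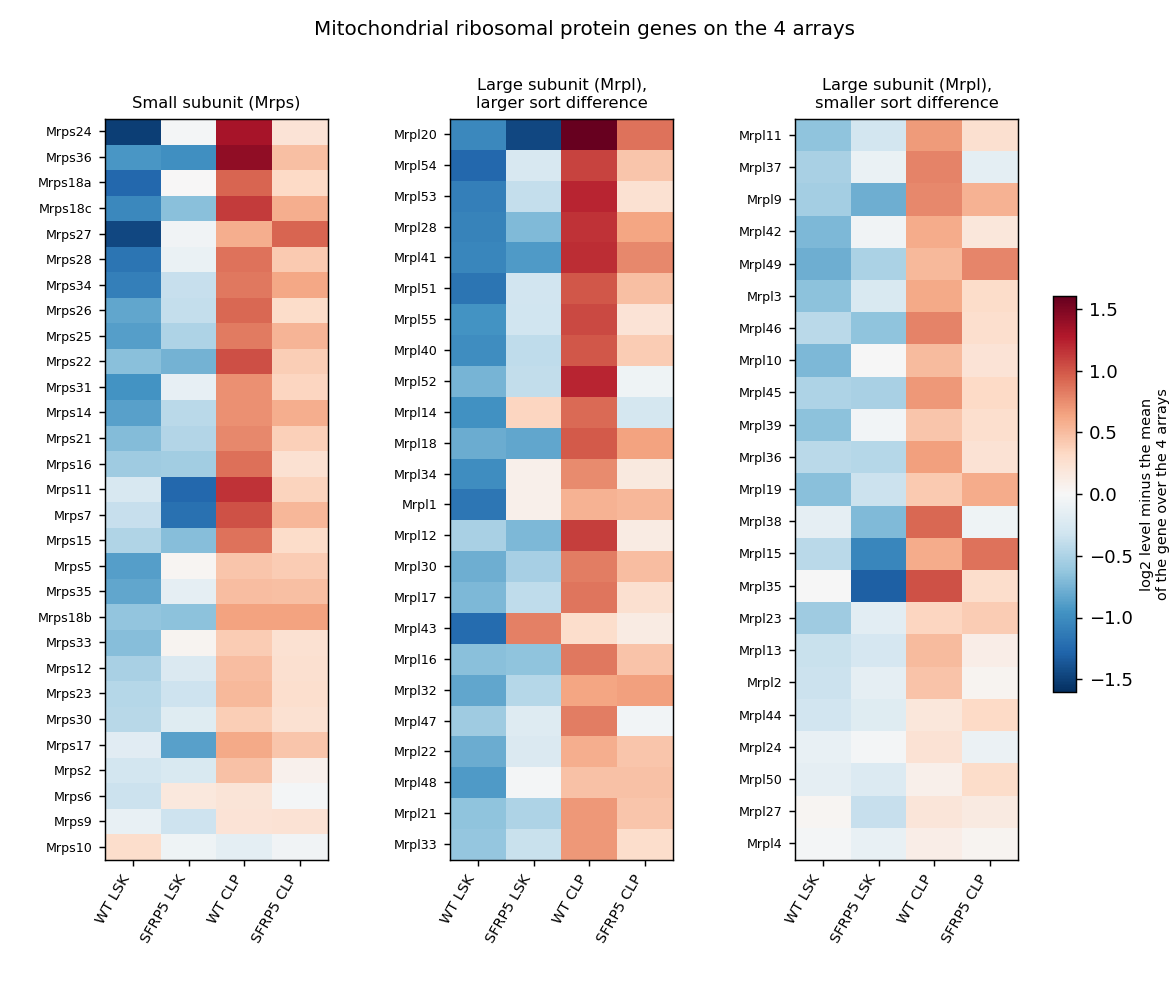
Level of each member on the 4 arrays, as log2 level minus the mean of that gene over the 4 arrays (colour scale, log2 units), with small subunit genes in the left panel and large subunit genes in the other panels, sorted by the CLP minus LSK difference in WT. For 54 of 76 members WT LSK was the lowest array and for 63 WT CLP was the highest; Mrps10, at the foot of the left panel, ran the other way in WT.

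The same comparison in SFRP5-transgenic marrow gave the same direction at a smaller size. Members above 0 numbered 71 of 76 (93.4%), against 51.5% of 15714 genes. A 1.5-fold higher level in CLP was reached by 42 members (55.3%; 22.6% of all genes), a 1.5-fold lower level by 2 (19.1% of all genes), and a 2-fold higher level by 20 (11.5% of all genes). The median member difference was 0.64, against 0.024 over all genes and 0.11 over genes with a bright array.

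In SFRP5 marrow the members at the top were partly others than in WT. After Mrpl20, the large subunit genes Mrpl15 (1.91), Mrpl41 (1.68) and Mrpl35 (1.58) had the largest differences. Among small subunit genes these were Mrps7 (1.72), Mrps11 (1.61), Mrps36 (1.46) and Mrps17 (1.31). Mrps7, a head protein needed early in assembly of the small subunit, was at 1.66 on WT LSK, 0.83 on SFRP5 LSK, 3.04 on WT CLP and 2.55 on SFRP5 CLP. Mrps11, a platform protein, was at -0.30 on WT LSK, -1.29 on SFRP5 LSK, 1.11 on WT CLP and 0.31 on SFRP5 CLP. For both genes SFRP5 LSK was the lowest array. At the other end, Mrpl43 (-0.67) and Mrpl14 (-0.63) were lower in CLP than in LSK in SFRP5 marrow, and 1.51 and 1.88 higher in WT marrow. Mrpl24 (-0.065), Mrpl37 (-0.044) and Mrps6 (-0.20) were the other 3 below 0, and Mrpl24 was at 0.00042 after background correction with normexp. Low in the small subunit were also Mrps24 (0.26) and Mrps33 (0.21), and the latter turned below 0 (-0.024) under quantile normalization. Mrpl34 (0.080) and Mrps10 (0.010) did so under quantile or cyclic loess normalization and in the authors' scaling.

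Across all 4 arrays, both CLP levels lay above both LSK levels for 70 of 76 members (92.1%), against 31.7% of the 15183 genes above background on all 4 arrays. In both genotypes, 19 members (25%) were at least 2-fold higher in CLP, against 7.01% of genes. They were 8 small subunit genes (Mrps7, Mrps11, Mrps14, Mrps18b, Mrps18c, Mrps22, Mrps25 and Mrps36) and 11 large subunit genes (Mrpl9, Mrpl15, Mrpl16, Mrpl18, Mrpl20, Mrpl28, Mrpl30, Mrpl32, Mrpl35, Mrpl41 and Mrpl49). Those 2 comparisons share no array. For 10 of the 19 a further probe was above background on all 4 arrays. Mrpl30 alone had every such probe past 2-fold in both genotypes. Mrps18b had 1 of its 2 past that size, with 1.25 in WT and 1.32 in SFRP5. In SFRP5 a further probe gave -0.86 for Mrps14, -0.51 for Mrps25, -0.24 for Mrps18b, -0.24 for Mrpl41, 0.024 for Mrps36, 0.54 for Mrps7, 0.63 for Mrpl49 and 0.65 for Mrpl9. In WT it gave -0.88 for Mrpl9, -0.71 for Mrpl41, -0.39 for Mrps25, 0.37 for Mrpl15 and 0.90 for Mrps7. The sort difference was larger in WT than in SFRP5 for 63 members (82.9%), against 52.8% of genes, and whether it differs between genotypes was not tested. By arithmetic, the WT minus SFRP5 sort difference of a gene equals its LSK minus CLP genotype difference. The opposed genotype differences below are therefore the same contrast of the same 4 arrays, not separate evidence.

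**Figure D2:**
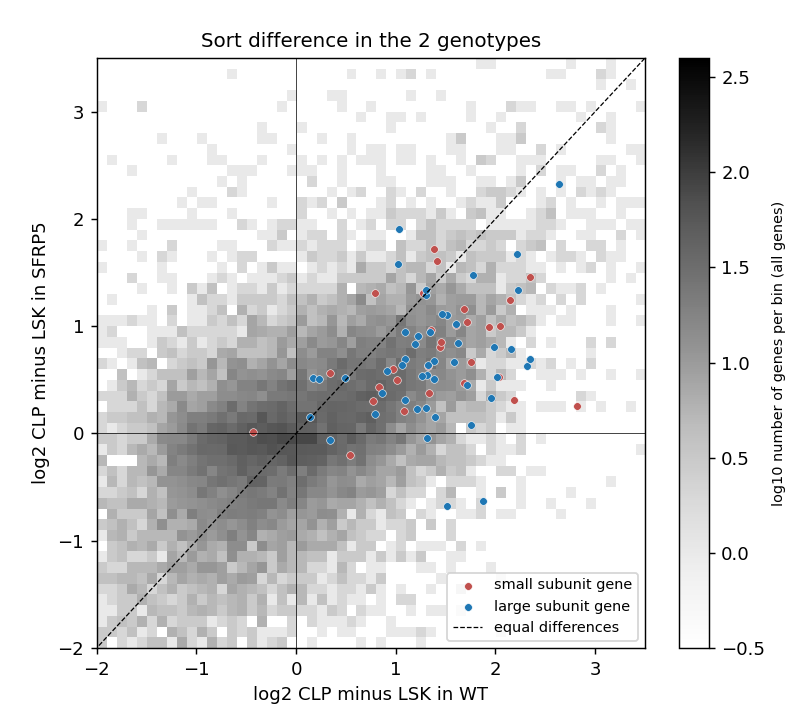
CLP minus LSK difference in SFRP5 (vertical axis, log2) against that in WT (horizontal axis, log2) for 29 small subunit genes (red) and 47 large subunit genes (blue), over the density of 15183 genes (grey scale, log10 number per bin; values beyond the axes are not drawn). All but 1 member lie to the right of 0 and 63 lie below the dashed line of equal differences.

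Since the members moved together between the sorts, the promoters of 67 members found in RefSeq's table (GRCm38.p6, 250 bases before to 50 after the start) were searched on both strands for 7 motifs known from other promoters. CCGGAAG, the core read by ETS factors such as GABP, was in 24 of 67 (35.8%), against 18.1% of 11156 genes above background on all 4 arrays and 9.93% of all 27025 promoters. GCGCANGCG, read by NRF1, a regulator of nuclear genes for mitochondrial proteins, was in 15 (22.4%; 13.4% and 7.03%). AAGATGGC, read by YY1, was in 12 (17.9%; 4.89% and 3.19%). At least 1 of these 3 was in 42 members (62.7%), against 31.4% and 17.8%, and 9 members held more than 1 kind. Such shares were not found in members alone: the ETS letters were in 41.9% of 62 cytosolic ribosomal protein promoters and 25% of 64 respiratory chain promoters, the NRF1 letters in 14.5% and 29.7%, and the YY1 letters in 9.68% and 15.6%. GGGCGG, read by SP1, was in 49.3% of members against 61.8% of the genes above background, CCAAT in 40.3% against 43.0%, TATAAA in 7.46% against 10.3% and the E-box CACGTG in 7.46% against 10.9%. A match of letters is a description and no evidence of binding.

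Printed here are the 120 bases just upstream of the annotated start, outside the transcribed gene, for 6 members chosen to show each kind of letters beside large, small and opposed sort differences; capitals mark the ETS, NRF1 or YY1 letters on either strand. Mrpl22 lies at the exit tunnel (chr11:58171544-58171663, plus strand; ETS and NRF1), Mrps22 in the small subunit body (chr9:98601680-98601799, minus strand; ETS), Mrps11 on the platform (chr7:78783011-78783130, plus strand; YY1), and Mrpl32 is a large subunit protein matured by a membrane protease (chr13:14613038-14613157, minus strand; NRF1). Mrpl43, with ETS letters at 2 places, differed in direction between the genotypes (chr19:45006443-45006562, minus strand). Mrpl27 (chr11:94653671-94653790, plus strand; ETS) hardly differed between the sorts in WT.
Mrpl22: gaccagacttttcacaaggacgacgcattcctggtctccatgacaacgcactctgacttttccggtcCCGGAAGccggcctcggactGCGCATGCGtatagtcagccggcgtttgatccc
Mrps22: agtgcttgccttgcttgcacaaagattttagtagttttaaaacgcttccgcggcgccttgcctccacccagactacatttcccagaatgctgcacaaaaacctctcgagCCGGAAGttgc
Mrps11: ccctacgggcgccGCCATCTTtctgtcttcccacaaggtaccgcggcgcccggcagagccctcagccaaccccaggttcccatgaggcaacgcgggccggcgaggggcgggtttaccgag
Mrpl32: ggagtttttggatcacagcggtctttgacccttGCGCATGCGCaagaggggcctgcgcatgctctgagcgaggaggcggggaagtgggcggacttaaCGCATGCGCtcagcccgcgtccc
Mrpl43: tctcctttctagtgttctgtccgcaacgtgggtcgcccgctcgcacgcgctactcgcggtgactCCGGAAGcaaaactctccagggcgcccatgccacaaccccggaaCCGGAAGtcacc
Mrpl27: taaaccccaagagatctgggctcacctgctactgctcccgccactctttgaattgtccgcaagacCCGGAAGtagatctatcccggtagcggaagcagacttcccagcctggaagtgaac

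The sort differences were also set beside the letters. Members with the ETS letters had a median CLP minus LSK difference in WT of 1.49, against 1.32 for the 43 without. With and without the NRF1 letters the medians were both 1.38, and with and without the YY1 letters they were 1.35 and 1.38. In SFRP5 the medians with and without were 0.65 and 0.58 for ETS, 0.67 and 0.59 for NRF1, and 0.85 and 0.63 for YY1. Mrpl27 and Mrpl22 both hold ETS letters, and their WT differences were 0.17 and 1.38.

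Between the genotypes in LSK, members were on balance higher in SFRP5 marrow, with wide scatter. The difference was above 0 for 54 of 76 members (71.1%), against 51.4% of 16129 genes, and for 45 to 58 under the other scalings and background correction. At least 1.5-fold higher were 22 members (28.9%; 16.9% of all genes), and at least 1.5-fold lower were 5 (6.58%; 18% of all genes). With arrays centred on the median of brighter genes that split was 13 to 7, with cyclic loess 16 to 8, and in the authors' scaling 15 to 6. The shares of all genes were not counted under these scalings. An excess of higher members over all genes is therefore shown for the main scaling alone. At 2-fold, 9 were higher (6.57% of all genes) and 1 lower (7.17%). The median member difference was 0.30, against 0.022 over all genes and 0.18 over genes with a bright array. Of the genes with a bright array, 62.4% were above 0, 19.0% were at least 1.5-fold higher and 10.6% that much lower.

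Mrpl43, a large subunit protein found in mitochondria alone, had the largest LSK difference between genotypes. Its level was 0.99 on WT LSK, 3.03 on SFRP5 LSK, 2.51 on WT CLP and 2.35 on SFRP5 CLP, a LSK difference of 2.03 (4.09-fold), and SFRP5 LSK was its highest array. Mrpl14, an interface protein bound by an assembly factor that keeps the subunits apart, was at 0.69 on WT LSK, 2.01 on SFRP5 LSK, 2.57 on WT CLP and 1.38 on SFRP5 CLP. SFRP5 LSK and WT CLP were its high arrays. Mrpl1 (1.24) and Mrpl34 (1.07) came next among large subunit genes, and Mrps24 (1.47), Mrps27 (1.40), Mrps18a (1.25) and Mrps28 (1.06) led the Mrps genes. All of these, with Mrpl54 (1.0), are the 9 members past 2-fold. Only Mrpl14, Mrpl43, Mrps18a and Mrps24 kept that size under quantile and cyclic loess normalization, normexp, the authors' scaling and averaged probes; the lowest values of the others were 0.52 for Mrpl1, 0.83 for Mrpl54, 0.89 for Mrpl34 and Mrps28, and 0.93 for Mrps27. Mrpl35 alone was over 2-fold lower, with -1.76 on WT LSK, -3.06 on SFRP5 LSK, -0.74 on WT CLP and -1.48 on SFRP5 CLP, a LSK difference of -1.30 that was -0.59 in the one of these alternatives nearest to 0. Mrps11 (-0.99), Mrps7 (-0.83), Mrps17 (-0.68) and Mrpl15 (-0.61) were the other members at least 1.5-fold lower.

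In CLP the direction was the opposite, and the scatter was narrower. Only 12 of 76 members (15.8%) were above 0, against 46.6% of 15944 genes, and 13 to 17 were under the other scalings and background correction. A 1.5-fold higher level in SFRP5 was reached by 0 members (11.3% of all genes). A 1.5-fold lower level was reached by 21 (27.6%, against 12.8% of all genes). That count was 13 in the authors' scaling and after normexp, where the share of all genes was not counted. At 2-fold, 3 were lower (4.31% of all genes). The median member difference was -0.38, against -0.037 over all genes. The middle 50% of members spanned 0.45 log2 units in CLP, against 0.68 in LSK, as it did over all genes in the same order (0.61 against 0.85).

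Mrpl52, specific to mitochondria, had the lowest CLP value, with 1.89 on WT LSK, 2.23 on SFRP5 LSK, 3.85 on WT CLP and 2.56 on SFRP5 CLP. WT CLP stood above the other 3 arrays, and the genotype difference there was -1.29. Mrpl14 (-1.19) and Mrps24 (-1.09) were the other members past 2-fold. Mrpl38, of the central protuberance (-0.98), Mrpl12, of the stalk that recruits translation factors (-0.98), and Mrps36 (-0.94) were close to that size. Mrps11 (-0.80) and Mrps16 (-0.64), the latter linked to human mitochondrial disease, came next in the small subunit. Mrpl12 was at 1.64 on WT LSK, 1.45 on SFRP5 LSK, 3.26 on WT CLP and 2.29 on SFRP5 CLP, so that WT CLP was again alone at the top. The highest members were Mrps27 (0.35), Mrpl15 (0.27), Mrpl49 (0.26), Mrpl50 (0.21) and Mrpl19 (0.18), and Mrpl49 turned to -0.33 when its probes were averaged.

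**Figure D3:**
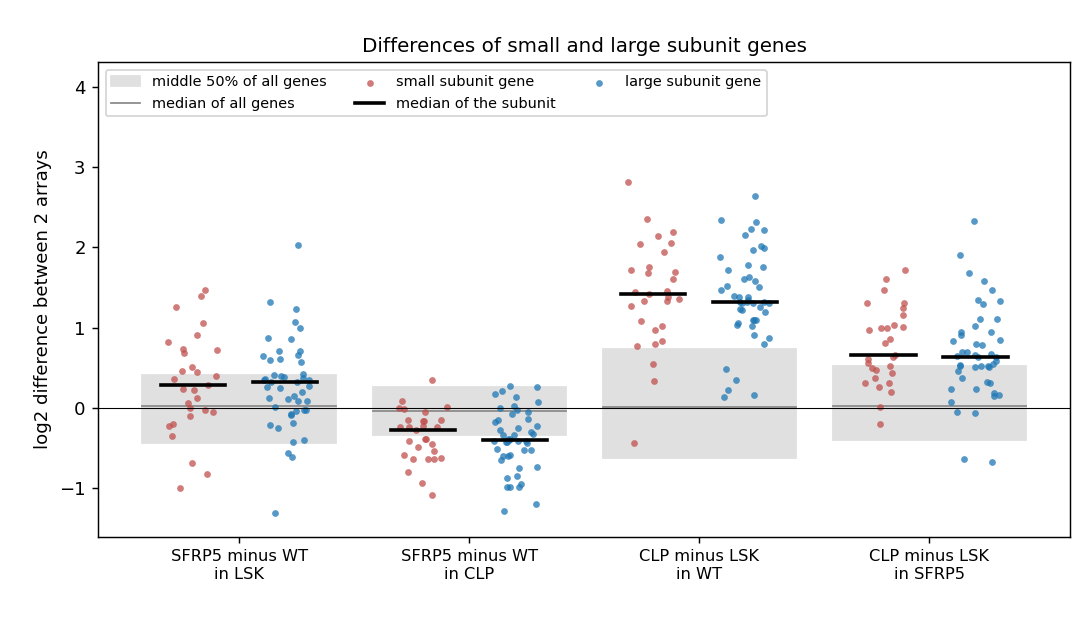
Log2 difference of each member in the 4 comparisons (points), small subunit in red and large subunit in blue, with the median of each subunit (black bar) over the median and the middle 50% of all genes (grey line and box). The medians of the small and the large subunit lie at 0.28 and 0.32 for the genotype in LSK, -0.28 and -0.40 for the genotype in CLP, 1.41 and 1.32 for the sort in WT, and 0.66 and 0.64 for the sort in SFRP5.

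The subunits were compared as groups. The median small subunit difference minus the median large subunit difference was -0.036 for the genotype in LSK, 0.12 for the genotype in CLP, 0.094 for the sort in WT and 0.027 for the sort in SFRP5. In each comparison the middle 50% of the members of a subunit spanned 0.43 to 0.78 log2 units, more than the distance between the subunits. Medians of the small and the large subunit were 0.28 and 0.32, -0.28 and -0.40, 1.41 and 1.32, and 0.66 and 0.64, in the same order of comparisons. With members placed by structure instead of symbol, they were 0.324 and 0.319, -0.26 and -0.40, 1.40 and 1.32, and 0.74 and 0.63. For the genotype in LSK the order of the subunits thus turned. It also turned with cyclic loess (0.130 and 0.115). In CLP the genotype medians were -0.38 and -0.40 with averaged probes. Lowest on WT LSK and highest on WT CLP were 19 of 29 small subunit genes (65.5%) and 27 of 47 large subunit genes (57.4%), together 46 of 76, against 18% of genes above background on all 4 arrays.

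Places within the ribosome spread more widely than the subunits, though each holds few genes. In the large subunit, 5 proteins grouped around the peptidyl transferase centre (Mrpl2, Mrpl3, Mrpl4, Mrpl16 and Mrpl27) had a median WT sort difference of 0.79. Their values ran from 0.14 to 1.51. The lowest value was that of Mrpl4, whose further probe gave 0.91, so the median depends on the placing of Mrpl4 and on its probe. The 5 of the central protuberance (Mrpl18, Mrpl38, Mrpl40, Mrpl46 and Mrpl48), which faces the small subunit, ranged from 1.06 to 1.99 with a median of 1.38. The 3 stalk proteins Mrpl10, Mrpl11 and Mrpl12 ranged from 1.22 to 1.63. The 6 at the exit tunnel (Mrpl17, Mrpl22, Mrpl23, Mrpl24, Mrpl45 and Mrpl47) ranged from 0.34 to 1.58; Mrpl45 ties the ribosome to the inner membrane. In the small subunit, 6 proteins of the foot and body had a median of 1.70, from 0.79 (Mrps17) to 2.05 (Mrps27), and the 3 around decoding and messenger entry (Mrps2, Mrps5 and Mrps12) had one of 1.02. In SFRP5 marrow the foot and body (1.02) and the platform (1.11) had the highest sort medians, and decoding and entry the lowest (0.37). Mrps12, a decoding centre protein that governs accuracy, was at 3.11 on WT LSK, 3.39 on SFRP5 LSK, 4.12 on WT CLP and 3.89 on SFRP5 CLP.

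By descent, 48 members have a bacterial counterpart, 27 do not, and Mrps36 was placed in neither group. Their median sort differences were close: 1.35 and 1.38 in WT, and 0.65 and 0.63 in SFRP5. For the genotype in CLP they were -0.39 and -0.38. For the genotype in LSK they were 0.23 for members with a bacterial counterpart and 0.46 for members specific to mitochondria, of which 13 of 27 were at least 1.5-fold higher and 0 that much lower, against 9 and 5 of 48; over all genes the shares were 16.9% higher and 18% lower, and 9 of 48 is near the first.

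The Mrps18 genes are 3 paralogs with a common bacterial ancestor, of which the protein of Mrps18a sits in the large subunit. Mrps18a was at -0.36 on WT LSK, 0.89 on SFRP5 LSK, 1.83 on WT CLP and 1.21 on SFRP5 CLP. Mrps18b was at 3.42 and 3.40 on the WT and SFRP5 LSK arrays and at 4.70 on each CLP array. Mrps18c was at 3.25 on WT LSK, 3.62 on SFRP5 LSK, 5.39 on WT CLP and 4.86 on SFRP5 CLP. At these probes the sort difference was above 0 in both genotypes for all 3 paralogs, at 2.19, 1.28 and 2.14 in WT and 0.31, 1.31 and 1.24 in SFRP5. They did not share the genotype differences: Mrps18a differed by 1.25 in LSK and -0.62 in CLP, Mrps18c by 0.37 and -0.53, and Mrps18b by -0.023 and 0.0075. Of its further probes, 1 Mrps18b probe gave 0.68 and -1.17 for the genotype and -0.24 for the sort in SFRP5, and with its probes averaged the signs of both Mrps18b values turned.

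More than 1 probe was on the array for 26 members, and for 24 of them a further probe was above background on both arrays compared. In the WT sort comparison 24 of 27 further probes had the sign of the brightest probe that stands for the gene, and their median was 1.25. In the SFRP5 sort comparison 21 of 26 did, with a median of 0.63. For the genotype the counts were 17 of 26 in LSK and 20 of 27 in CLP, with medians of 0.20 and -0.22. Probes of 1 gene could disagree by more than 1 log2 unit. In WT that held for Mrpl41 (2.22 and -0.71), Mrpl9 (1.31 and -0.88), Mrps25 (1.71 and -0.39) and Mrpl50 (0.23 and 1.29). In SFRP5 CLP minus LSK it held for 8 genes: Mrpl41, Mrpl47, Mrpl50, Mrps7, Mrps14, Mrps18b, Mrps25 and Mrps36. For the genotype in LSK, Mrps14 gave 0.44 and 2.13, Mrps36 gave -0.054 and 1.33, Mrps7 gave -0.83 and 0.21, and Mrpl9 gave -0.25 and -1.34. In CLP, Mrpl49 gave 0.26 and -0.92 at its probes. The lead of Mrps7, Mrps36 and Mrpl41 in SFRP5 therefore rests on the brightest probe, since their further probes gave 0.54, 0.024 and -0.24.

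**Figure D4:**
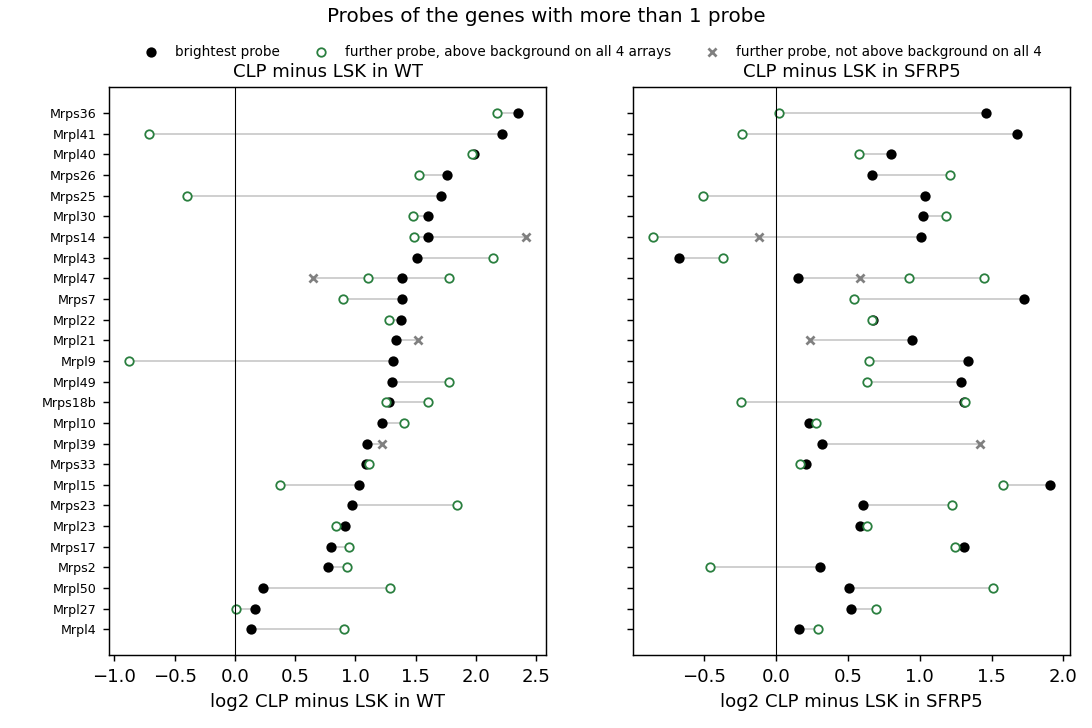
CLP minus LSK difference (horizontal axes, log2) in WT (left) and SFRP5 (right) at each probe of the 26 members with more than 1 probe, with the brightest probe in black, further probes above background on all 4 arrays as open circles and the others as crosses. Further probes of Mrpl41, Mrpl9 and Mrps25 lie left of 0 in WT although the brightest probe lies right of it.

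Other genes of mitochondrial translation were read beside the members. Of all genes, 29.6% were at least 1.5-fold higher in CLP in WT and 26.5% that much lower. In SFRP5 these shares were 22.6% and 19.1%. The 7 ribosomal proteins under other names moved with the members: all 7 were at least 1.5-fold higher in CLP in WT (median 1.33), and 5 were in SFRP5 (1.05). Mrp63, whose present symbol is Mrpl57, was at 0.95 on WT LSK, 2.10 on SFRP5 LSK, 3.88 on WT CLP and 2.96 on SFRP5 CLP. Its WT sort difference of 2.93 was above that of any member. Gadd45gip1, a large subunit protein first named for another role, differed by 2.46 in WT. Of 15 translation factors 9 were at least 1.5-fold higher in CLP in WT and 0 lower (median 0.61), led by Taco1 (2.14), an activator of translation of a respiratory chain subunit. Of 26 assembly and rRNA modification genes 13 were that much higher and 3 lower (0.68), and of 17 tRNA synthetases 9 were higher and 1 lower (0.65). In SFRP5 marrow these 3 lists had medians of 0.44, 0.24 and -0.19. Genes of mitochondrial transcription and its regulators did not follow, with medians of -0.19 in WT and 0.10 in SFRP5. In WT 3 of these 15 were at least 1.5-fold higher and 3 lower, both below the shares of all genes. Tfam, which packages mitochondrial DNA, was the highest of them in WT (0.93).

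The nuclear-encoded respiratory chain subunits, which the products of this ribosome join, had medians close to the members: 1.49 for the sort in WT, 0.73 for the sort in SFRP5, and 0.35 and -0.38 for the genotype in LSK and CLP. At least 1.5-fold higher in CLP were 71 of 73 in WT and 47 in SFRP5, against 29.6% and 22.6% of all genes. In both genotypes 0 were that much lower, against 26.5% and 19.1% of all genes. Cytosolic ribosomal proteins had genotype medians of 0.32 and -0.42, close to those of the members, and smaller sort medians of 0.83 in WT and 0.095 in SFRP5. In SFRP5 marrow 1 of 81 cytosolic ribosomal protein genes was at least 1.5-fold higher in CLP and 2 were that much lower. Of the 76 members these were 42 and 2, and of all genes 22.6% and 19.1%. The lists were chosen with earlier results known and share arrays, and the differences between them were not tested.

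**Figure D5:**
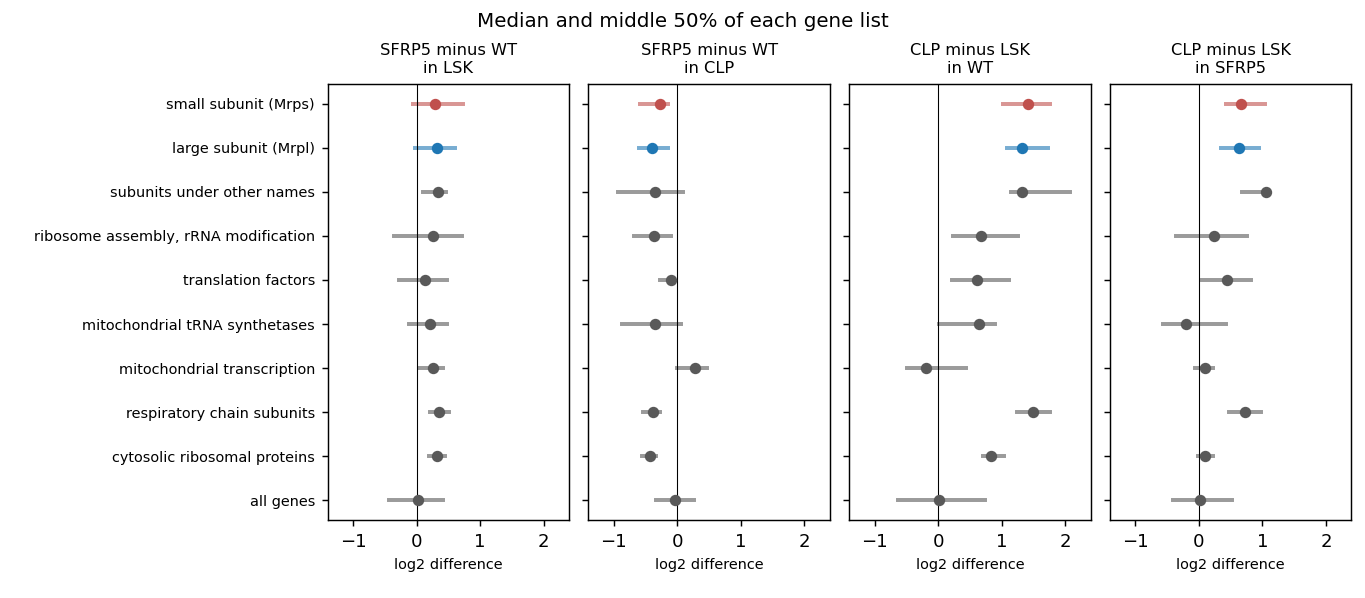
Median (point) and middle 50% (line) of the log2 differences of each gene list in the 4 comparisons, with the small subunit in red, the large subunit in blue and other lists and all genes in grey. In the sort comparison in SFRP5 both subunits and the respiratory chain subunits lie between 0.64 and 0.73, and the cytosolic ribosomal proteins lie at 0.095.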

How the data were processed

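Per the labels, RNA of sorted bone marrow cells (6.1 ng a sample) was amplified, labelled with Cy3 and hybridised to 1-colour Agilent arrays, 4 in all. The deposited scanner files hold processed intensity per spot, corrected for background by Agilent Feature Extraction (10.10 per the submitters' processing notes). In the signal table the authors deposited stands the same intensity times 1 factor per array (4.91 to 6.42). The amplification from so little RNA can add variation that 1 array a group does not show.

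From these, log2 processed intensity minus the 75th percentile of its array was computed (Python 3.11.15, pandas 2.3.3), leaving out control spots and outlier flags and averaging spots of a probe. A gene is its probe with the highest mean log2, under the file's symbol, measured where it is well above background on both arrays compared. Differences past 1.5-fold and 2-fold were counted, with no test. Alternatives used limma 3.58.1 in R 4.3.3. The calculation was tested on simulated data, where all 200 changed genes were recovered. Those changes were large and every simulated spot was set above background. The simulation thus checks the code, and not how small differences or amplification behave. Members, lists and roles were chosen with earlier results of these data known, and the places and descent of members after the values were seen. Genes named are, by rule, the 4 highest and lowest of each subunit per comparison, those past 2-fold, those with probes over 1 log2 unit apart, the Mrps18 paralogs and members that oppose between the sorts; Mrp63, Gadd45gip1, Taco1 and Tfam are extremes of their lists. Values of other members show their place in the ribosome. The authors' table of ratios was not used.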

Additional observations from a re-analysis of the deposited data

Results flagged for a closer look

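Of the 76 members, 8 were at least 1.5-fold higher in SFRP5 than in WT among LSK cells and at least 1.5-fold lower among CLP, where 3% of the genes above background on all 4 arrays were. Only Mrpl14 and Mrps24 kept both calls under quantile and cyclic loess normalization, normexp, the authors' scaling and averaged probes: in at least 1 of these, Mrpl34 (-0.50), Mrpl54 (-0.54) and Mrps18a (-0.52) fell short in CLP, Mrpl53 (0.58) and Mrpl55 (0.45) in LSK, and Mrpl40 in both (0.39 and -0.49). With 1 array a group, the difference between the sorts was not tested. The log2 differences in LSK and in CLP were 1.32 and -1.19 for Mrpl14, 1.07 and -0.60 for Mrpl34, 0.59 and -0.59 for Mrpl40, 0.71 and -0.98 for Mrpl53, 1.0 and -0.65 for Mrpl54, and 0.65 and -0.84 for Mrpl55. For Mrps18a they were 1.25 and -0.62, and for Mrps24 they were 1.47 and -1.09. Among these, 7 have 1 probe, and the further probe of Mrpl40 gave 0.62 and -0.77. The replicate spots of Mrpl34 had SDs of 0.024 to 0.073. No member ran the opposite way at that size.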

How the results depend on the processing

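No paired analysis was possible because each group is 1 array and the labels give no replicate numbers. Leaving out a replicate was not possible for the same reason. Both alternatives to the filter on dim probes could change nothing, since every member was above background on all 4 arrays, and say nothing about stability. Of the other 112 alternative values of the subunit medians and of the counts past 1.5-fold, 93 stayed within a set limit. It was 0.12 log2 units for a median, the SD between replicate spots of a difference, and 1.5 times for a count. The other 19 moved further, and 0 changed direction. That SD does not measure the spread of a median over many genes. Within the limit, the small subunit median for the genotype in CLP went from -0.28 to -0.18 in the authors' scaling. With quantile normalization the LSK genotype medians went from 0.28 to 0.20 (small) and from 0.32 to 0.23 (large). In the scaling of the authors' deposited table, all genes had medians of -0.40 for the sort in WT, -0.16 for the sort in SFRP5 and -0.11 for the genotype in LSK, and the small and large subunit medians were 1.0 and 0.91, 0.48 and 0.45, and 0.15 and 0.19. Centred on brighter genes they were 1.09 and 1.0 for the sort in WT and 0.10 and 0.14 for the genotype in LSK. With cyclic loess these were 1.21 and 1.15, and 0.13 and 0.11. With quantile normalization the small subunit median was 1.25 for the sort in WT and the large subunit median 0.50 for the sort in SFRP5. Normexp background correction, added after seeing the data and run on median signals, gave 1.28 for the small subunit in WT; the version on mean signals was not run. Members at least 1.5-fold different between genotypes in CLP numbered 13 in the authors' scaling and 13 with normexp, against 21. The cause of these moves was not tested. Averaging the probes of a gene, updating symbols and placing members by structure moved none of these values past those limits. The difference between the small and the large subunit was not among these values, and its sign for the genotype in LSK did change. The number of arrays limits the precision.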
